A study of Mus musculus with 6 samples.

Results

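The report is about 10 genes of the NF-kB system in mouse biliary epithelial cells, the cells that line the bile ducts of the liver. They are the subunit genes Nfkb1, Nfkb2, Rela and Relb, the I-kappa-B family genes Nfkbia, Nfkbie and Nfkbiz, the feedback inhibitor gene Tnfaip3, the ubiquitin ligase gene Birc3 and the adhesion molecule gene Icam1. These genes and the pathway lists below were chosen with earlier results of these data known. Their counts beside all tested genes are therefore description only. The 10 were taken by gene name from a table of 21700 genes, and all 10 were present. They were among the 11412 genes that reached a mean of 1 FPKM (fragments per kilobase of exon, deposited on a common scale between libraries) over the libraries, the minimum for testing. The libraries came from female wild-type C57BL/6 mice, 3 from pregnant mice at day 8 post coitum and 3 from non-pregnant mice. In both groups flow cytometry isolated the cells from non-parenchymal fractions of digested liver, and their ribosomal RNA-depleted total RNA was sequenced. Which antibodies set the sorting gate is not given in the sources used here. The comparison asks how biliary cells in early pregnancy differ from those outside pregnancy. The labels do not say that libraries of a group came from separate mice, so each p-value reflects only how these libraries vary, which may be technical.

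NF-kB is a family of dimeric transcription factors that I-kappa-B proteins hold in the cytoplasm until a kinase complex, switched on by receptors for cytokines or microbial products, marks the inhibitor for destruction. The freed dimers enter the nucleus and switch on genes of inflammation and survival, among them genes for their own inhibitors, which closes a negative feedback loop. In bile ducts the pathway is known from the response of the epithelium to bacterial products and cytokines.

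Dimers bind the kappa-B element, and 4 of the genes held the 10-base kappa-B consensus, searched on both strands, in the 250 bases before a start annotated by RefSeq. RefSeq promoter windows of the build GRCm38.p6 were matched for 7 of the 10 genes (Nfkb2, Rela, Nfkbia, Nfkbie, Tnfaip3, Birc3 and Icam1), 10 windows in all, of which 6 held the consensus. Of all 32851 windows 3.9% held it, and of all 27025 genes with a window 4.46% did. The wider pattern GGGNNNNNCC, which every consensus match also meets, was found in all 7 genes and in 48.7% of all genes. Up to 150 bases before the RefSeq start are shown for the 3 inhibitor genes among the 4, since these are the genes that feedback would act on, 5′ to 3′ on the gene's strand, with consensus matches in capitals.
Nfkbia, chr12:55492648-55492797, minus strand: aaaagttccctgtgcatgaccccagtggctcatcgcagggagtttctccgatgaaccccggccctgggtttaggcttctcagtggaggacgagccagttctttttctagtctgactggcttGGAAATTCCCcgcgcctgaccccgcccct
Nfkbie, chr17:45555550-45555699, plus strand: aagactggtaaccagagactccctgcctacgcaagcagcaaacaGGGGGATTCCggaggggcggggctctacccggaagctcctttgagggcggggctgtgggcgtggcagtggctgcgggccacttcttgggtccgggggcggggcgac
Tnfaip3, chr10:19015411-19015547, minus strand: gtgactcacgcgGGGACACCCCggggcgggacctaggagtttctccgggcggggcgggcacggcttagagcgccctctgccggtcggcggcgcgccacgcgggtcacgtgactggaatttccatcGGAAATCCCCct
The match in Nfkbia ended 19 bases before the start and that in Nfkbie 96 bases before it, and those in Tnfaip3 ended 115 and 2 bases before it. The stretches of Nfkbia and Nfkbie lie outside the genes as GENCODE annotates them. That of Tnfaip3 lies inside, in an intron of a longer transcript, and is shown over 137 bases, up to that transcript's first exon. Nfkb2 is not shown, because the 150 bases before its first RefSeq start, with 3 matches, lie in an exon of a longer GENCODE transcript. The windows of its later starts held 1 match each, ending 226 and 215 bases before the start, outside the 150 bases. The windows of Rela, Birc3 and Icam1 held no consensus match, which says only that these letters are not in these windows.

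In pregnancy the level was higher in the group mean for 9 of the 10 genes, where 44.8% of tested genes had a log2 change above 0, and lower for Icam1, and none passed the test. The limma fit called 0 of the 10 at an adjusted p under 0.05, against 10 of 11412 genes tested (0.0876%), 7 of them higher and 3 lower. At an unadjusted p under 0.05 there were 7 of the 10, 6 higher and 1 lower, where the shares of all tested genes were 7.09% higher and 6.3% lower. All 3 pregnant libraries lay above all 3 non-pregnant ones for 6 of the 10 genes, against 9.9% of tested genes, and below them for 1, against 12.2%. The median log2 change was 0.29 over the 10 genes and -0.02 over all tested genes, and without non-pregnant library 3 it was 0.18 and -0.01. In bulk samples fewer cells of a type and less RNA per cell cannot be told apart, which holds for each value below.

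**Figure D1:**
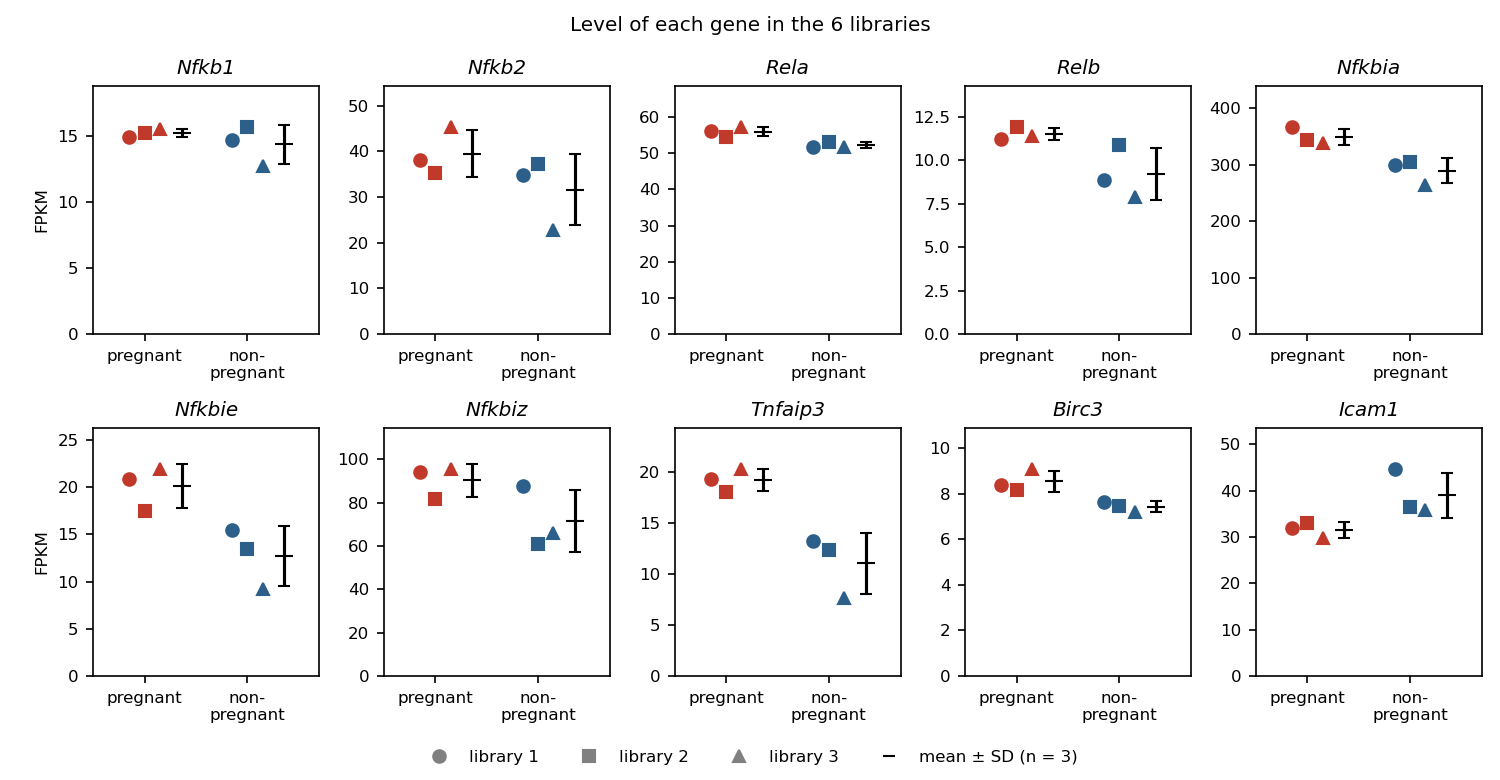
FPKM of each of the 10 genes in the 3 pregnant (red, left) and 3 non-pregnant (blue, right) libraries, with a symbol for each library number and the mean ± SD in black; every axis starts at 0. Tnfaip3 and Nfkbie show the widest gaps between groups, Icam1 is the gene that lies lower in pregnancy, and non-pregnant library 3 (triangle) is the lowest of the 6 for 8 of the 10 genes.

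Rela encodes the main activating subunit of the canonical dimer. It had 56.2, 54.6 and 57.2 FPKM in pregnant libraries 1 to 3, against 51.8, 53.2 and 51.7 FPKM in non-pregnant libraries 1 to 3. The groups did not overlap, and the difference was small, at 1.07 times the non-pregnant mean (log2 change 0.10, 95% interval -0.06 to 0.26; limma adjusted p = 0.516). Nfkb1, whose precursor protein is processed into the DNA-binding partner of Rela, had 14.9, 15.2 and 15.5 FPKM in pregnant libraries and 14.7, 15.6 and 12.7 FPKM in non-pregnant libraries. Non-pregnant library 2 was the highest of the 6 and library 3 the lowest, and the log2 change was 0.08 (interval -0.12 to 0.29; limma adjusted p = 0.657), against 0.01 without non-pregnant library 3. In mm10 coordinates of GENCODE Rela (ENSMUSG00000024927) spans chromosome 19 from 5637483 to 5648130, and Nfkb1 (ENSMUSG00000028163) chromosome 3 from 135584655 to 135691547.

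Neither subunit of the non-canonical branch passed the test. Relb, the partner of processed Nfkb2 protein and itself a known NF-kB target, had 11.2, 11.9 and 11.4 FPKM in pregnant libraries, against 8.86, 10.8 and 7.87 FPKM in non-pregnant libraries. Every pregnant library was above every non-pregnant one, with non-pregnant library 2 close beneath them (log2 change 0.30, interval 0.05 to 0.56; limma adjusted p = 0.327). Nfkb2, whose long protein acts as an inhibitor until it is processed, had 38.1, 35.1 and 45.2 FPKM in pregnant libraries, against 34.8, 37.2 and 22.8 FPKM in non-pregnant libraries. The groups overlapped, since non-pregnant library 2 was above pregnant library 2, and most of the difference in means came with the low value of non-pregnant library 3. The log2 change of Nfkb2 was 0.33 (interval -0.09 to 0.76; limma adjusted p = 0.432), and without non-pregnant library 3 it was 0.12. Relb (ENSMUSG00000002983) lies on chromosome 7 from 19606217 to 19629438 and Nfkb2 (ENSMUSG00000025225) on chromosome 19 from 46304320 to 46312385. Of the 4584 exonic bases of Nfkb2, 299 are shared with Psd and 531 with AC114539.1, both on the opposite strand. Whether the counting used strand is not given in the sources used here, so reads there cannot be assigned. Psd stood between 0.369 and 0.517 FPKM in pregnant libraries and between 0.275 and 0.535 FPKM in non-pregnant ones.

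FPKM divides by the length of all annotated exons of a gene, 12061 bases for Nfkb1 and 3072 for Rela. Levels of different genes set side by side therefore rest on that annotation. By FPKM Rela was the highest subunit gene in each of the 6 libraries. In fragments Nfkb1 stood above Rela in all but non-pregnant library 3. Nfkb1 had 4796, 5675 and 4742 fragments in pregnant and 5076, 5702 and 5405 in non-pregnant libraries. Rela had 4599, 5186 and 4446 in pregnant and 4557, 4946 and 5592 in non-pregnant libraries. Rela made up 46.7, 46.7 and 44.2% of the summed FPKM of the 4 subunit genes in pregnant libraries, against 47.0, 45.5 and 54.3% in non-pregnant libraries. Nfkb2 made up 31.6, 30.1 and 35.0% in pregnant and 31.6, 31.8 and 24.0% in non-pregnant libraries. Non-pregnant library 3 thus held a larger share of Rela and a smaller share of Nfkb2 than the other 5 libraries, which lay close together. Nfkb1 took between 12.0 and 13.0% in pregnant and between 13.3 and 13.4% in non-pregnant libraries, and Relb between 8.81 and 10.2% in pregnant and between 8.05 and 9.27% in non-pregnant libraries. The sum of the 4 was 120.5, 117 and 129 FPKM in pregnant libraries, against 110.1, 117 and 95.1 FPKM in non-pregnant ones.

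**Figure D2:**
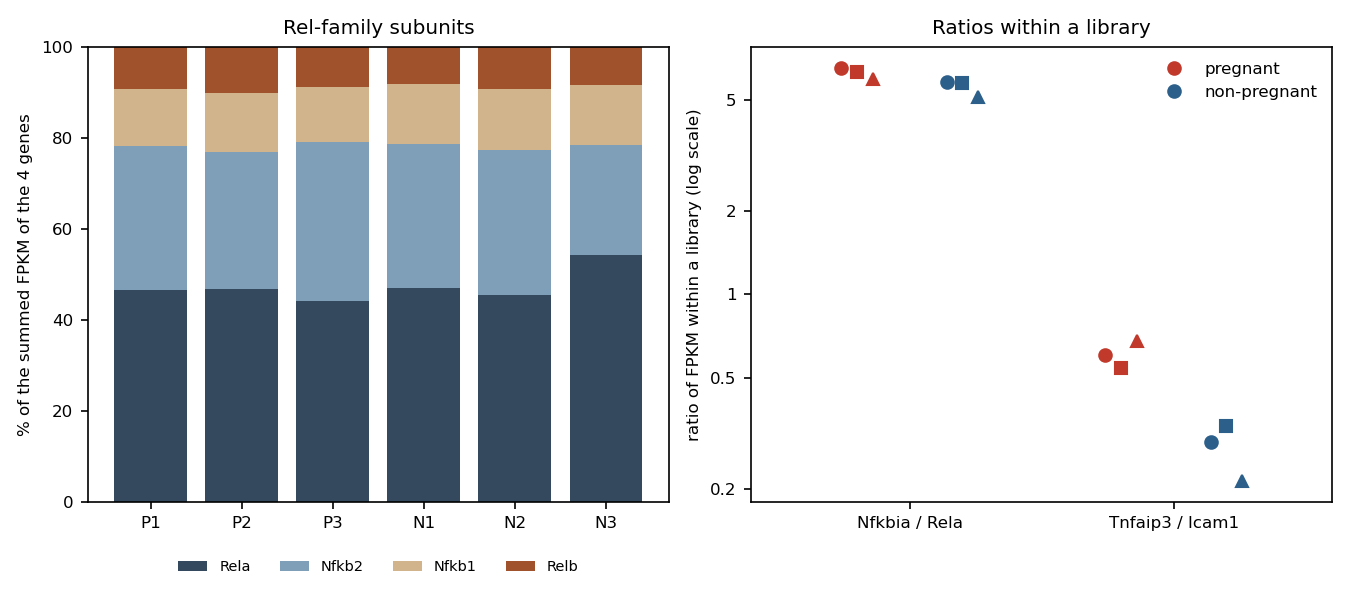
Left, percent of the summed FPKM of Rela, Nfkb2, Nfkb1 and Relb in pregnant (P1 to P3) and non-pregnant (N1 to N3) libraries; Rela is at 54.3% in N3 and between 44.2 and 47.0% in the others. Right, FPKM of Nfkbia over Rela and of Tnfaip3 over Icam1 within each library on a log axis, pregnant red and non-pregnant blue (circle, square and triangle for libraries 1 to 3). The groups do not overlap for either ratio, which for Tnfaip3 over Icam1 follows from the separate levels of these genes.

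Nfkbia encodes I-kappa-B alpha, the inhibitor that is destroyed and made anew in each round of signalling, and was the most abundant of the 10 transcripts. It had 366, 344 and 339 FPKM in pregnant libraries, against 299.9, 305 and 264 FPKM in non-pregnant libraries. Its mean over the 6 libraries was at or above that of 99.5% of tested genes. All pregnant libraries were above all non-pregnant ones, at 1.21 times the non-pregnant mean (log2 change 0.27, interval 0.04 to 0.51; limma adjusted p = 0.334). Within a library the level of Nfkbia was 6.52, 6.29 and 5.93 times that of Rela in pregnant libraries, against 5.79, 5.72 and 5.11 times in non-pregnant libraries, so the groups did not overlap in a ratio that no scaling of a library can move. This ratio and that of Tnfaip3 to Icam1 were chosen after the values were seen and carry no test. Nfkbia (ENSMUSG00000021025) spans chromosome 12 from 55489410 to 55492647.

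Nfkbie, which encodes I-kappa-B epsilon, an inhibitor that NF-kB also induces, showed the second largest difference of the 10. It had 20.9, 17.5 and 21.9 FPKM in pregnant libraries, against 15.4, 13.5 and 9.24 FPKM in non-pregnant libraries. The groups did not overlap, and non-pregnant library 3 was far beneath the rest (log2 change 0.64, interval 0.24 to 1.04; limma adjusted p = 0.295). The ratio of means was 1.58 with all libraries and 1.39 without non-pregnant library 3. Nfkbie (ENSMUSG00000023947) spans chromosome 17 from 45555703 to 45563169.

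Nfkbiz encodes I-kappa-B zeta, an atypical nuclear member of the family that acts as a cofactor on a subset of target genes. It had 94.3, 81.6 and 95.4 FPKM in pregnant libraries, against 88.0, 61.0 and 66.0 FPKM in non-pregnant libraries. The groups overlapped, since non-pregnant library 1 was above pregnant library 2 (log2 change 0.35, interval 0.01 to 0.68; limma adjusted p = 0.362). Leaving out non-pregnant library 1 gave a log2 change of 0.50, and leaving out library 2 of that group gave 0.24. Nfkbiz (ENSMUSG00000035356) lies on chromosome 16 from 55811375 to 55838899.

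Tnfaip3, the ubiquitin-editing enzyme that shuts down signalling upstream of the kinase complex, showed the largest difference of the 10. It had 19.3, 18.0 and 20.2 FPKM in pregnant libraries, against 13.2, 12.3 and 7.65 FPKM in non-pregnant libraries. Pregnant libraries lay close together and above all non-pregnant ones, among which library 3 was the lowest. The ratio of means was 1.74, and 1.51 without non-pregnant library 3. The log2 change was 0.78 (interval 0.37 to 1.18; limma adjusted p = 0.277), and 98 of the 11412 tested genes had a smaller p. Tnfaip3 had 3717, 4018 and 3698 fragments in pregnant and 2724, 2683 and 1947 in non-pregnant libraries, so counting error was small beside the spread between libraries. Tnfaip3 (ENSMUSG00000019850) spans chromosome 10 from 19000910 to 19015657.

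Birc3, a ubiquitin ligase that joins receptor complexes and is a known NF-kB target, had the lowest mean FPKM of the 10. It had 8.38, 8.18 and 9.08 FPKM in pregnant libraries, against 7.64, 7.49 and 7.18 FPKM in non-pregnant libraries. The groups did not overlap, and the difference was 1.15 times the non-pregnant mean (log2 change 0.18, interval 0.01 to 0.35; limma adjusted p = 0.362). Its neighbouring paralog Birc2 had 19.5 ± 1.00 FPKM in pregnant and 17.3 ± 2.34 FPKM in non-pregnant libraries (SD, n = 3 each). Birc3 (ENSMUSG00000032000) lies on chromosome 9 from 7848699 to 7873186.

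Icam1 encodes a surface protein by which leukocytes attach, a classical NF-kB target, and it was the gene of the 10 that stood lower in pregnancy. It had 31.9, 33.1 and 29.7 FPKM in pregnant libraries, against 44.6, 36.5 and 35.9 FPKM in non-pregnant libraries. The groups did not overlap, and non-pregnant library 1 was well above the other two (log2 change -0.29, interval -0.52 to -0.06; limma adjusted p = 0.322). Without non-pregnant library 1 the log2 change was -0.19. Within a library the ratio of Tnfaip3 to Icam1 was 0.605, 0.543 and 0.681 in pregnant libraries, against 0.295, 0.337 and 0.213 in non-pregnant libraries. Since Tnfaip3 was higher and Icam1 lower in every pregnant library, this ratio could not overlap. Icam1 (ENSMUSG00000037405) lies on chromosome 9 from 21015985 to 21028817, and 511 of its 4360 exonic bases are shared with Gm47079 on the opposite strand, where reads cannot be assigned without strand.

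**Figure D3:**
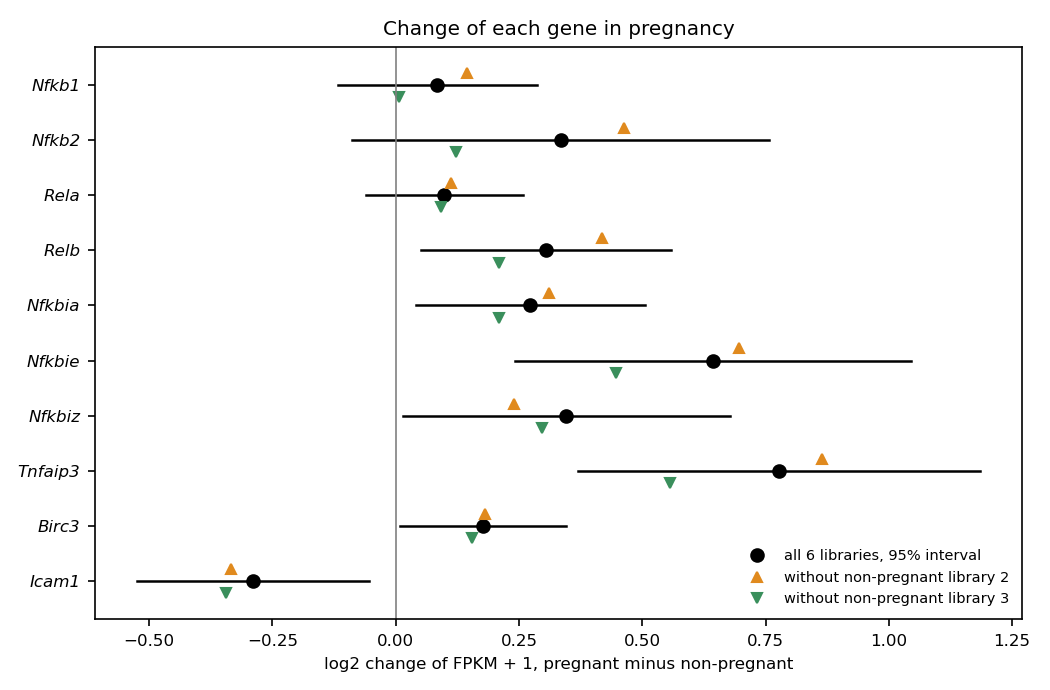
Log2 change of FPKM + 1, pregnant minus non-pregnant, of each gene with its 95% interval from limma (black), and the same value without non-pregnant library 2 (orange) or 3 (green). Intervals of Nfkb1, Nfkb2 and Rela include 0, and without library 3 the value is nearer 0 for all but Icam1.

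In pregnant libraries the order of mean FPKM, which rests on annotated exon lengths, ran Nfkbia, Nfkbiz, Rela, Nfkb2, Icam1, Nfkbie, Tnfaip3, Nfkb1, Relb and Birc3. The neighbours whose libraries overlapped were Nfkbie and Tnfaip3. In non-pregnant libraries Icam1 stood before Nfkb2 and Nfkb1 before Nfkbie, Tnfaip3 and Relb, with overlap between Icam1 and Nfkb2 and along the run from Nfkb1 to Relb. Across the 10 genes the fragments in a library ranged from 986, for Relb, to 17091, for Nfkbia.

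Non-pregnant libraries 2 and 3 stood apart from the rest, and the log2 changes of several of the 10 genes moved when either was left out. Nfkbiz and Icam1 moved most without non-pregnant library 1, from 0.35 to 0.50 and from -0.29 to -0.19. Non-pregnant library 3 gave the lowest value of 8 of the 10 genes, and of 28.5% of tested genes, and pregnant library 3 gave the highest value of 6, and of 16.9% of tested genes. For 8 of the 10 genes the SD of log2(FPKM + 1) was larger among non-pregnant than among pregnant libraries, a share close to the 75.2% of all tested genes. Leaving out a library cannot make separate groups overlap, so counts of genes without overlap could only stay or rise. Without non-pregnant library 3 the groups did not overlap for 6 genes higher and 1 lower, against 14.0% and 17.7% of tested genes. An unadjusted p under 0.05 in limma was reached by 4 of the 10 (12.4% of tested genes). Without non-pregnant library 2 there were 8 genes higher and 1 lower without overlap, against 19.4% and 24.4% of tested genes, and 6 of the 10 had an unadjusted p under 0.05 (24.0% of tested genes). Without library 2 limma called 0 of the 10 and 1.17% of tested genes, with adjusted p down to 0.0628 for Relb and 0.0650 for Tnfaip3. Without library 3 it called 0 of the 10 and 0 of all tested genes, with an adjusted p of 0.0897 for Tnfaip3. Array weights set non-pregnant libraries 1 to 3 at 3.68, 0.411 and 0.205, so the weighted non-pregnant mean rested mostly on library 1. That library had the highest Icam1 value of all. With these weights limma called Tnfaip3, Relb and Icam1 (adjusted p of 0.0145, 0.0201 and 0.0148) and also 11.4% of all tested genes.

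Markers of other cells differed between the same libraries. The 12 markers of Kupffer cells and other macrophages summed to between 44.6 and 118 FPKM in pregnant and between 2.81 and 9.49 FPKM in non-pregnant libraries. All 10 tested ones were higher without overlap, against 9.9% of all tested genes. The 8 endothelial markers summed to between 17.8 and 26.2 FPKM in pregnant libraries and to 32.5, 228 and 16.2 FPKM in non-pregnant libraries 1 to 3. The 8 hepatocyte markers summed to between 2556 and 2926 FPKM in pregnant and between 2934 and 3653 FPKM in non-pregnant libraries. Most of that sum was Alb, which overlapped, at 2274, 2094 and 2074 FPKM in pregnant and 1973, 2460 and 2550 FPKM in non-pregnant libraries. Ahsg was lower without overlap, at 186 ± 39.7 FPKM in pregnant and 561 ± 89.7 FPKM in non-pregnant libraries (SD, n = 3 each). Ttr was also lower without overlap, and Serpina1c was higher without overlap. Of the 8 lymphocyte markers 7 were in the table, with sums between 2.92 and 3.34 FPKM in pregnant and between 1.62 and 2.16 FPKM in non-pregnant libraries, most of it Cd79a, and Cd3d was at 0 in all non-pregnant libraries. The 5 neutrophil markers summed to at most 1.10 FPKM in pregnant and 0.866 FPKM in non-pregnant libraries, with Mmp8 at 0 in all, and the 6 stellate cell markers to between 8.90 and 11.3 FPKM in pregnant and between 11.4 and 14.4 FPKM in non-pregnant libraries. The 10 immediate-early genes that cell dissociation induces summed to between 3120 and 3939 FPKM in pregnant and between 2812 and 4005 FPKM in non-pregnant libraries, and 6 of them lay above 0 in log2 change. The 8 biliary markers summed to between 6687 and 7181 FPKM in pregnant and between 4924 and 6229 FPKM in non-pregnant libraries. The part of these cells in the values of the NF-kB genes was not tested.

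Other genes of the pathway were taken in 7 lists by role, 86 genes of which 66 were tested, and none of the 66 passed (limma, smallest adjusted p = 0.229). At an unadjusted p under 0.05 there were 14 higher and 4 lower, 21.2% and 6.06% of the 66, where the shares of all tested genes were 7.09% and 6.3%. Their median log2 change was 0.05. Several list medians depended on non-pregnant library 3. Without it the median was 0.19 for the other Rel and I-kappa-B family genes, -0.06 for the kinases, 0.04 for the adaptors and ligases, -0.02 for the brakes, 0.06 for the receptors, 0.16 for the ligands and 0.12 for the targets.

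**Figure D4:**
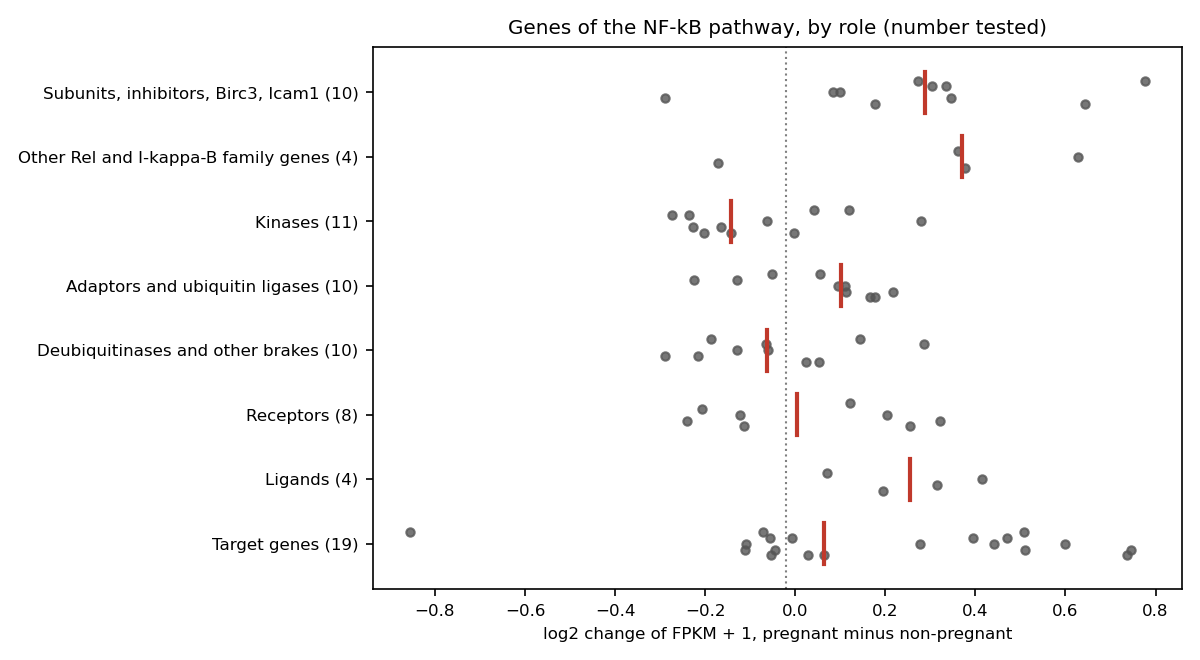
Log2 change of FPKM + 1, pregnant minus non-pregnant, of each tested gene (grey points) by role, with the list median in red and the median of all tested genes (-0.02) as a dotted line. Medians run from -0.14 for the kinases to 0.37 for the other Rel and I-kappa-B family genes, and without non-pregnant library 3 (not drawn) these medians are -0.06 and 0.19.

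Among the other family genes, Nfkbid, which encodes a nuclear I-kappa-B, had 14.5, 13.0 and 14.1 FPKM in pregnant libraries, against 10.3, 10.6 and 5.74 FPKM in non-pregnant ones, and Rel, the subunit best known from lymphocytes, had 3.50, 2.62 and 3.37 FPKM in pregnant libraries, against 2.61, 2.08 and 2.02 FPKM in non-pregnant ones. For both genes the groups did not overlap (limma adjusted p of 0.301 and 0.308). Nfkbib, which encodes I-kappa-B beta, was at 14.1 ± 0.343 FPKM in pregnant and 16.1 ± 2.48 FPKM in non-pregnant libraries (SD, n = 3 each). The 4 genes of this list had a median of 0.37.

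Most of the kinases had a lower group mean in pregnancy, and none passed the test. Of 11 tested, 3 lay above 0 in log2 change, against 44.8% of all tested genes. In every pregnant library 6 were lower than in every non-pregnant one, against 12.2% of tested genes, while 1 was higher throughout, against 9.9%. Ikbkg, the regulatory subunit of the I-kappa-B kinase complex, had 5.56, 5.81 and 5.89 FPKM in pregnant libraries, against 6.78, 7.03 and 7.70 FPKM in non-pregnant ones (log2 change -0.27; limma adjusted p = 0.295). Ripk1, a scaffold kinase of the tumour necrosis factor receptor complex, had 8.71 ± 0.346 FPKM in pregnant and 10.4 ± 0.404 FPKM in non-pregnant libraries (limma adjusted p = 0.301). Tbk1, a kinase related to the I-kappa-B kinases, had 11.5 ± 0.490 FPKM in pregnant and 13.4 ± 1.37 FPKM in non-pregnant libraries. Of the catalytic subunit genes of the I-kappa-B kinase complex, Chuk stood at 9.55 ± 0.453 FPKM in pregnant and 9.59 ± 0.872 FPKM in non-pregnant libraries. Ikbkb was lower in every pregnant library, at 3.98 ± 0.191 FPKM in pregnant and 4.59 ± 0.283 FPKM in non-pregnant libraries (limma adjusted p = 0.404; SD, n = 3 each throughout).

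Adaptors and ubiquitin ligases had a median of 0.10 over 10 tested genes, of which 7 lay above 0, against 44.8% of all tested genes. Traf2, an adaptor of these receptors, was at 10.2 ± 0.264 FPKM in pregnant and 8.91 ± 0.640 FPKM in non-pregnant libraries (limma adjusted p = 0.372), and Traf3, which restrains the non-canonical branch, at 11.1 ± 1.38 FPKM in pregnant and 9.35 ± 0.685 FPKM in non-pregnant libraries. Traf6, the ligase of the Toll-like receptor branch, was at 8.32 ± 0.206 FPKM in pregnant and 10.01 ± 2.01 FPKM in non-pregnant libraries. The list of deubiquitinases and other brakes had a median of -0.06 over 10 tested genes, with 4 above 0, and it also held Traf3ip2, an adaptor that is no brake. The ligase gene Itch was at 13.4 ± 0.552 FPKM in pregnant and 15.8 ± 1.68 FPKM in non-pregnant libraries, Tnip2, a partner of Tnfaip3, at 7.12 ± 0.760 FPKM in pregnant and 8.98 ± 1.52 FPKM in non-pregnant libraries, and Usp18, which also limits interferon signalling, at 6.73 ± 0.270 FPKM in pregnant and 5.43 ± 1.40 FPKM in non-pregnant libraries. The deubiquitinase gene Cyld was at 6.08 ± 0.0464 FPKM in pregnant and 5.99 ± 0.833 FPKM in non-pregnant libraries (SD, n = 3 each throughout).

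By the sign of the change receptors split evenly, with 4 of 8 tested genes above 0 (44.8% of all tested genes). Their median was 0.00 (-0.03 without non-pregnant library 2). Without overlap 3 of the 8 were higher, against 9.9% of tested genes, and 0 were lower, against 12.2%. Il1r1, an interleukin receptor gene, had 12.2, 12.4 and 11.9 FPKM in pregnant libraries, against 9.28, 11.4 and 8.16 FPKM in non-pregnant ones (limma adjusted p = 0.322). Tnfrsf1a, the main receptor for tumour necrosis factor, was lower in the group mean, at 35.6 ± 1.73 FPKM in pregnant and 42.4 ± 5.35 FPKM in non-pregnant libraries (limma adjusted p = 0.372), and Tnfrsf12a, the receptor for the ligand encoded by Tnfsf12, stood at 90.0 ± 3.42 FPKM in pregnant and 75.8 ± 11.0 FPKM in non-pregnant libraries (SD, n = 3 each). Of the 10 ligands 4 were tested and lay above 0, and Tnfsf11 was at 0 in all libraries. Ltb, which encodes lymphotoxin beta, was at 4.04, 4.55 and 4.35 FPKM in pregnant libraries, against 3.45, 3.60 and 2.79 FPKM in non-pregnant ones (limma adjusted p = 0.301). Tnf, which encodes tumour necrosis factor itself, was at 2.34, 1.44 and 2.0 FPKM in pregnant libraries, against 1.6, 1.19 and 0.814 FPKM in non-pregnant ones, with overlap, and Il18, an epithelial cytokine gene, at 6.61 ± 1.13 FPKM in pregnant and 5.63 ± 0.751 FPKM in non-pregnant libraries (SD, n = 3 each).

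Of 30 known NF-kB target genes outside the 10, 19 were tested, and none passed the adjusted threshold. All pregnant libraries lay above all non-pregnant ones for 8 of the 19 (9.9% of all tested genes), and 8, not all the same, were higher with an unadjusted p under 0.05 (7.09% of all tested genes), while 0 were lower by either measure. Ier3, an early response gene of cell survival, had the smallest p of the pathway, with 473, 411 and 402 FPKM in pregnant libraries, against 297, 314 and 289.9 FPKM in non-pregnant ones (log2 change 0.51, SE 0.104; limma adjusted p = 0.229). The neutrophil chemokine gene Cxcl1 was at 7.35, 5.92 and 10.1 FPKM in pregnant libraries, against 4.06, 5.12 and 3.38 FPKM in non-pregnant ones (limma adjusted p = 0.290). Tnfaip2, a gene induced by tumour necrosis factor, was at 3.0 ± 0.152 FPKM in pregnant and 1.97 ± 0.415 FPKM in non-pregnant libraries (SD, n = 3 each; limma adjusted p = 0.295). The 11 targets that were not tested for their low level included Il6, Ccl2 and Ptgs2, each at or under 0.256 FPKM in every library. The other tested targets lay on either side of 0, and the median of the 19 was 0.06.

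The likeness of patterns was measured as the root mean square difference, over the 6 libraries, of log2(FPKM + 1) centred on its mean, so that 0 is an identical pattern. Among tested genes with a name, those most like Tnfaip3 were Ror1 (0.0793), Nfkbie (0.0911), Nfkbid (0.0951), Oas1a (0.0980) and Gbp2 (0.10). Ror1, a receptor tyrosine kinase gene, had 31.4, 31.2 and 36.6 FPKM in pregnant libraries, against 24.1, 23.6 and 15.3 FPKM in non-pregnant ones. Nfkb2 followed Tnfaip3 at rank 239 and Relb at rank 656, and the remaining genes of the 10 came later. Those most like Icam1 were Appl2 (0.0521), Hist2h3c2 (0.0526), Map3k5 (0.0528), Polr3gl (0.0601) and Rprd1a (0.0604), with Nfkb1, at rank 6251, the nearest of the 10. Appl2, which encodes an endosomal adaptor, had 21.8, 22.1 and 21.9 FPKM in pregnant libraries, against 29.9, 25.4 and 23.8 FPKM in non-pregnant ones.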

How the data were processed

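The members and gene lists were chosen with earlier results of these data known. The authors deposited one table of FPKM values with a column per library, and STAR 2.7.9a, cutadapt 3.4, DESeq2 1.30.1, HTSeq 0.13.5 and the build mm10 stand in the submitters' processing notes without their roles. Groups and library numbers were taken from the sample titles, and the descriptions number non-pregnant library 3 differently. Median-ratio factors of the deposited values were 1 in every library, so they already stood on that scale. FPKM times the GENCODE exon length was a whole number of fragments (tolerance 0.01) for 98.5% of values above 0, and these fragments summed to between 24448312 and 29917457 in pregnant and between 28179752 and 34285323 in non-pregnant libraries. Replicate libraries differed by more than counting noise. Between 15928 and 16245 genes were above 0.

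FPKM is not a count, so log2(FPKM + 1), with a pseudocount of 1 FPKM that understates changes of low genes, was tested with limma 3.58.1 (trended empirical Bayes, two-sided, R 4.3.3) over the 11412 genes that averaged 1 FPKM or more. The Benjamini-Hochberg method adjusted p over all of them, with a threshold of 0.05. The fit was also run on simulated data with a dispersion of 0.01 and no library standing apart. That run does not show how the fit performs on libraries as uneven as these. Changes are pregnant minus non-pregnant. Lists are described by counts and medians. The text names the 10 genes, the 3 genes with the smallest p of each list, and the 5 genes nearest in pattern to Tnfaip3 and to Icam1. Birc2, Chuk, Ikbkb, Cyld, Psd, Traf3ip2, Il6, Ccl2, Ptgs2, Tnfsf11, Alb, Ahsg, Ttr, Serpina1c, Cd79a, Cd3d and Mmp8 were named after their values were seen. Promoter windows came from RefSeq (GRCm38.p6). The alternatives were other pseudocounts, filters, scalings, variance models, a replicate block, limma-voom on the fragments and leaving out each library. Tables used pandas 2.3.3 and scipy 1.17.1 under Python 3.11.15.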

Additional observations from a re-analysis of the deposited data

How the results depend on the processing

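The log2 change of each of the 10 genes kept its sign under the 13 alternatives that can move it, from 0.53 to 0.91 for Tnfaip3, 0.38 to 0.79 for Nfkbie, 0.21 to 0.31 for Nfkbia, 0.21 to 0.42 for Relb, 0.09 to 0.50 for Nfkbiz, 0.12 to 0.46 for Nfkb2, 0.13 to 0.21 for Birc3, 0.08 to 0.13 for Rela, 0.01 to 0.15 for Nfkb1 and -0.43 to -0.19 for Icam1. The other 7 (median-ratio scaling, whose factors were 1, the filters, the replicate block and 2 variance models) leave the log2 change as it is, and median-ratio scaling repeats every value. The number of the 10 called was 3 with array weights and 0 under the others. With array weights the median over the 10 was 0.14 and 1301 genes were called over all tested. The number called over all tested genes was 10, and it was 0 with no filter, 4 with a filter at 5 FPKM, 5 with robust empirical Bayes, 1 with limma-voom on the recovered fragments and between 0 and 133 with a library left out, where 0 of the 10 were called. The cause was not tested. Scaling to each library's own fragment total, chosen after seeing the data, called 11 genes and 0 of the 10. The replicate block called 13 genes and 0 of the 10. Same-numbered libraries did not deviate together (correlations of 0.07, 0.02 and -0.14 over tested genes), so the numbers were not taken as pairs. With 3 libraries a group, the intervals of Nfkb1, Nfkb2 and Rela include 0 and do not show that these genes were level.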
